A study of Arabidopsis thaliana with 4 samples.

Results

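AT5G20700 and AT3G22550 are Arabidopsis thaliana genes of the FCS-like zinc finger family, whose proteins carry a short plant-specific zinc finger known in older annotation as DUF581. The members were the probe sets that the array's naming table assigns to these 2 loci. There was 1 probe set for each, so 2 of the 22746 probe sets on the array, and 2 of the 13355 genes with a probe set of their own. The loci were picked with their differences on all 4 arrays known, so their levels and differences are given as a description, with no test. They lie on chromosomes 5 and 3 in the RefSeq annotation of TAIR10.1, so they are not neighbours.

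The study compared shoot apices that still held leaf primordia, taken from 14-day-old plants raised on soil in long days (light for 16 hours, dark for 8 hours). There was 1 array each for the as1-1 mutant, the as2-1 mutant and a line labelled AS2 overexpressing, and 1 for wild type. All were in the Col-0 background. The promoter that drives AS2 in the overexpressing line, the number of plants pooled per RNA sample and the number of transgenic lines are not given in the sources used here. Free text attached to the samples mentions embryos, which does not match the tissue and growth labels, and the tissue labels were followed. With 1 array per genotype there is no replicate check, so no value below has an error or a p-value, and precision is limited by how few arrays there are.

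FCS-like zinc finger proteins bind SnRK1, the plant protein kinase that is active when energy is short and that corresponds to AMPK in animals and Snf1 in yeast. They are thought to act as adaptors that bring the kinase together with other proteins, and transcripts of several family members respond to sugar, starvation and abscisic acid. AS1, a MYB-domain protein, and AS2, an LBD-family protein, form a complex that represses target genes in young leaves and is needed for a flat, symmetric leaf blade. The series asked which genes depend on this complex.

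Both zinc finger genes were about 2-fold higher in both mutants than on either of the other arrays. AT5G20700 had a deposited signal of 426.5 in as1-1, 496.2 in as2-1, 201.2 in the AS2 overexpressing line and 195.8 in wild type. The mutants were high and the other arrays low, and the 2 low values were close to each other. AT3G22550 had a signal of 125.7 in as1-1, 129.3 in as2-1, 47.9 in the AS2 overexpressing line and 58.1 in wild type. The same arrays were high and low, with the AS2 overexpressing line below wild type for this gene. Levels of the 2 genes come from different probes and cannot be set against each other.

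**Figure D1:**
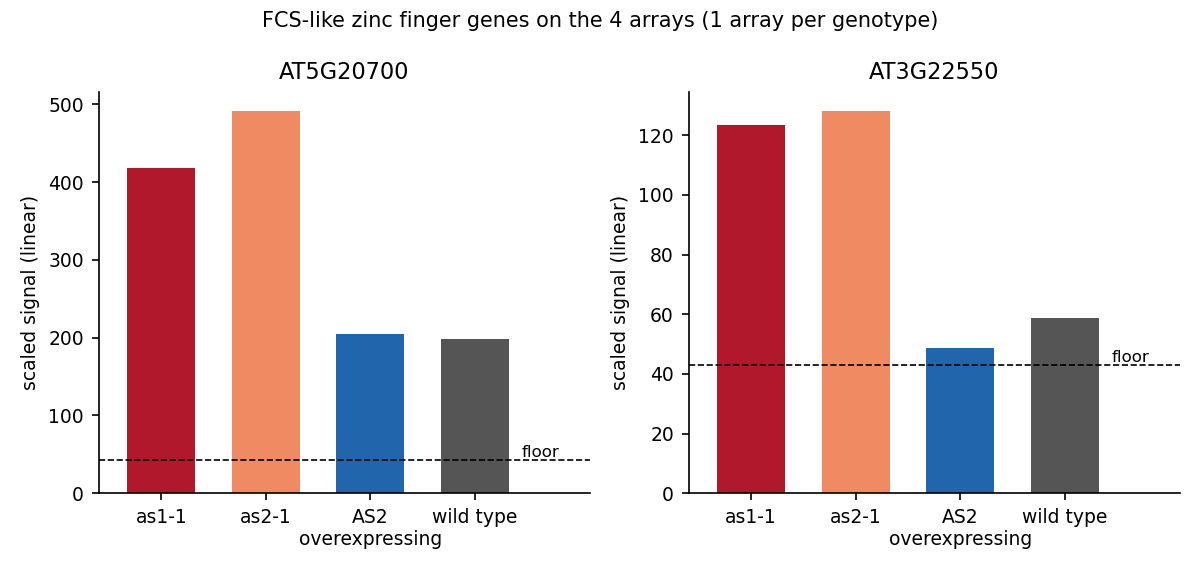
Scaled signal (linear axis from 0) of AT5G20700 and AT3G22550 on the arrays of as1-1, of as2-1, of the AS2 overexpressing line and of wild type, 1 bar per array with no error because there is 1 array per genotype. The as1-1 and as2-1 bars stand about 2-fold above the others for both genes, and the AS2 overexpressing and wild type bars of AT3G22550 lie just above the floor of 42.88 (dashed line).

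AT5G20700 stood well clear of the floor, the scaled signal of 42.88 below which values were not distinguished. Its lowest array, wild type, was at 4.62 times the floor. AT3G22550 did not: it was at 1.14 times the floor in the AS2 overexpressing line and 1.37 times the floor in wild type. The highest array exceeded the lowest by 2.48-fold for AT5G20700 and by 2.63-fold for AT3G22550.

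Loss of AS1 was set against wild type first. After each array was centred on the median of its brighter probe sets, the log2 difference of as1-1 minus wild type was 1.08 for AT5G20700, which is 2.11-fold, and 1.07 for AT3G22550, which is 2.10-fold. Both passed the 2-fold limit used to call a gene, and both fell under it with a pseudocount of 32 added in place of the floor (0.97 for AT5G20700 and 0.78 for AT3G22550). Over all genes measured in this comparison, 1.42% were called higher (110 of 7744) and 2.87% in either direction. For AT5G20700, 165 of the 7744 genes had a larger difference in either direction, and for AT3G22550 170 did. These places are not evidence about the genes, since the genes were picked for their differences.

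The as2-1 array showed differences of similar size. The log2 difference of as2-1 minus wild type was 1.31 for AT5G20700 (2.48-fold) and 1.12 for AT3G22550 (2.18-fold), where 1.5% of all genes were called higher (116 of 7751) and 3.28% in either direction. With the pseudocount the value of AT3G22550 was 0.82, under 2-fold. In this comparison 88 genes had a larger difference in either direction than AT5G20700 and 148 had a larger one than AT3G22550. The as1-1 and as2-1 comparisons share the wild type array. Set directly against each other, as1-1 minus as2-1, the mutants differed by a log2 value of -0.23 for AT5G20700 and -0.05 for AT3G22550. Both were under 2-fold, a limit that 0.73% of genes passed (55 of 7538), and without replicates the smaller as1-1 value of AT5G20700 cannot be set against any spread.

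With AS2 overexpressed, AT5G20700 stood close to wild type. The log2 difference of the AS2 overexpressing line minus wild type was 0.05, and 6912 of 7748 genes had a larger difference in either direction. For AT3G22550 it was -0.27, a signal 1.21-fold lower in the AS2 overexpressing line, with both arrays close to the floor. Neither reached 2-fold, where 1.91% of all genes did (148 of 7748). The AS2 overexpressing line against as2-1 gave log2 differences of -1.27 for AT5G20700 (2.40-fold lower) and -1.40 for AT3G22550 (2.63-fold lower), where 1.75% of genes were called lower (133 of 7595) and 2.79% in either direction. For as1-1 minus the AS2 overexpressing line the values were 1.03 and 1.34, where 1.95% of genes were called higher (148 of 7604) and 2.93% in either direction. The value of 1.03 for AT5G20700 was just past 2-fold and came to 0.97 when arrays were centred on all probe sets. With the pseudocount it was 0.93, and AT3G22550 then fell under 2-fold both against as2-1 (-0.99, AS2 overexpressing minus as2-1) and against as1-1 (0.95, as1-1 minus AS2 overexpressing).

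The 4 arrays can be divided in 3 ways into comparisons that have no array in common. As1-1 against wild type and the AS2 overexpressing line against as2-1 are such a pair, and both genes were called in each, higher in as1-1 than in wild type and lower in the AS2 overexpressing line than in as2-1. Of the 7429 genes measured in both, 23 were called this way in both. That is 20.9% of the 110 called higher in the first and 17.3% of the 133 called lower in the second. In another such pair, as2-1 against wild type and as1-1 against the AS2 overexpressing line, 7445 genes were measured in both. Of these, 24 were called higher in both, 20.7% of 116 and 16.2% of 148, and both zinc finger genes were among them. The remaining pair compares the mutants with each other and AS2 overexpression with wild type, and neither zinc finger gene was called in either comparison, as the values above show. All these pairs are drawn from the same 4 arrays, so calls in one pair are not independent of calls in another. The zinc finger genes were picked with their differences on all 4 arrays known, so their calls are not evidence about them.

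**Figure D2:**
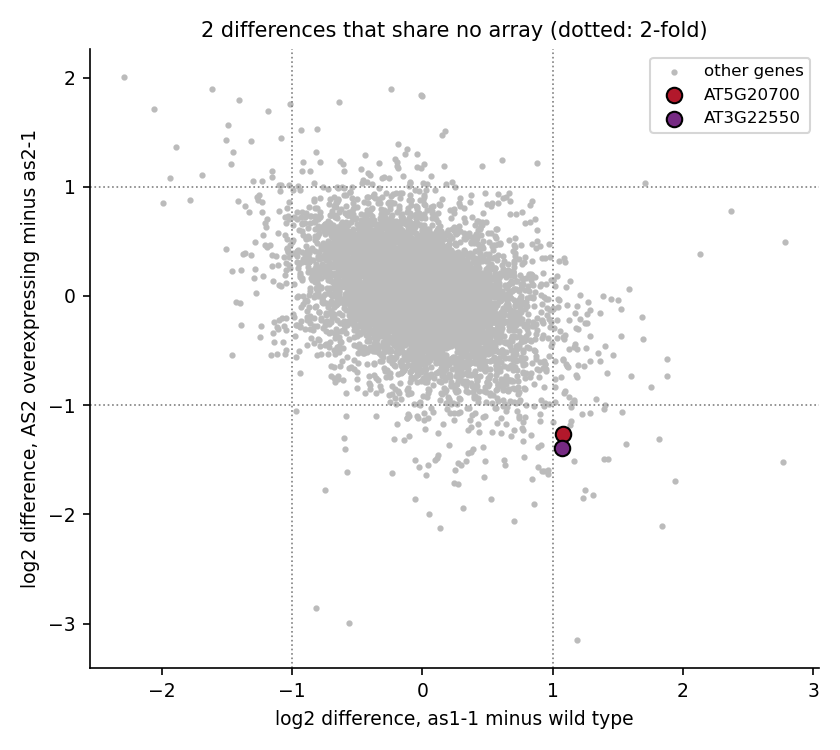
Log2 difference of as1-1 minus wild type (horizontal) against the AS2 overexpressing line minus as2-1 (vertical), 2 comparisons that share no array, 1 point per gene measured in both, with dotted lines at 2-fold. AT5G20700 (1.08 and -1.27) and AT3G22550 (1.07 and -1.40) lie close together in the lower right corner. They were picked with these differences known, so their place is not evidence about them.

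The smallest separation between the mutants and the other arrays was taken as the lower mutant minus the higher of the AS2 overexpressing and wild type arrays. It was 1.03 on the log2 scale for AT5G20700, set by as1-1 and the AS2 overexpressing line, and 1.07 for AT3G22550, set by as1-1 and wild type. Both mutants stood at least 2-fold above both other arrays for 16 of 7910 genes, 0.202%. The zinc finger genes were the 14th (AT3G22550) and 15th (AT5G20700) of these, so both are just inside the limit. As the genes were picked for their differences, these places are not evidence about them. With centring on all probe sets the separation of AT5G20700 was 0.97, under 2-fold, and with a pseudocount of 32 in place of the floor it was under 2-fold for both, at 0.93 for AT5G20700 and 0.78 for AT3G22550. Mutants above both other arrays at any fold were common, at 19.8% of genes (1566 of 7910).

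The rest of the family was then examined, from a list of 18 loci that was drawn up from general knowledge and could not be checked against a gene description in the naming tables. Of these, 13 had a probe set of their own, 2 shared a probe set that the table assigns to both (AT1G53885 and AT1G53903) and were not used, and the others were not analysed here. AT1G19200 and AT5G49120 lay below the floor on all 4 arrays. That left 9 family genes beside the 2 already described, and 1 of them was called in as2-1 against wild type, where 3.28% of all genes were called in either direction, and 0 in as1-1 against wild type, where 2.87% were.

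AT2G44670 came closest to the pattern of the 2 genes. It had a signal of 533.2 in as1-1, 501.8 in as2-1, 189.7 in the AS2 overexpressing line and 274.9 in wild type. The mutants were again the high arrays, and the AS2 overexpressing line was the lowest. Its log2 differences were 0.91 in as1-1 and 0.84 in as2-1 against wild type, both under 2-fold, and -0.53 in the AS2 overexpressing line against wild type. It was called lower in the AS2 overexpressing line than in as2-1 (-1.37), where 1.75% of all genes were. It was also called higher in as1-1 than in the AS2 overexpressing line (1.44), where 1.95% were. Beside the 2 members, it was the 1 family gene called of 9 measured in the first of these pairs and of 8 in the second.

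AT1G78020 was the family gene called in as2-1. It had a signal of 859.9 in as1-1, 1143.0 in as2-1, 638.5 in the AS2 overexpressing line and 556.5 in wild type. Its log2 difference from wild type was 1.01 in as2-1, just past 2-fold, and 0.58 in as1-1. With quantile normalization the as2-1 value was 0.99, and with a pseudocount of 32 in place of the floor it was 0.97, both under 2-fold. The AS2 overexpressing line differed from wild type by 0.21.

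Of the other family genes, all except AT4G17670, whose differences are partly bounds, stayed under 2-fold in all 6 pairs of arrays. AT1G22160 was set apart in the AS2 overexpressing line, with signals of 194.7 in as1-1, 169.2 in as2-1, 98.1 in the AS2 overexpressing line and 183.6 in wild type. Its log2 difference there was -0.90 from wild type. AT5G47060 had 312.5 in as1-1, 230.6 in as2-1, 177.0 in the AS2 overexpressing line and 217.5 in wild type, so as1-1 stood highest. AT1G79970 was lowest in wild type, at 321.1, and highest in the AS2 overexpressing line, at 489.8. AT1G74940 differed from wild type by 0.35 in as1-1, by 0.15 in as2-1 and by 0.17 with AS2 overexpressed.

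Of the weaker family signals, AT2G25690 stayed between 51.9 and 61.6 and AT5G11460 between 60.4 and 76.5 on the 4 arrays. AT4G17670 ran from 28.0 in as1-1, under the floor, to 59.0 in as2-1. The AS2 overexpressing array was also under the floor for this gene. The differences of these 2 arrays from wild type and from as2-1 are therefore bounds, which do not show whether 2-fold was reached, and as1-1 minus the AS2 overexpressing line has no value.

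As a group, the 9 other family genes had a median log2 difference from wild type of 0.33 in as1-1, with 7 above 0 and 2 below, beside a median of -0.03 over all genes. In as2-1 the median was 0.15, with 8 above 0 and 1 below, beside -0.04 over all genes. In the AS2 overexpressing line it was -0.05, with 4 above and 5 below, beside -0.02. AT4G17670 enters with bounds in as1-1 and in the AS2 overexpressing line, both counted among the values below 0. Both mutants stood above both other arrays for 4 of the 9, AT1G78020, AT2G44670, AT2G25690 and AT5G47060, against 19.8% of all genes. The margin was under a log2 value of 0.10 for AT2G25690 (0.095) and AT5G47060 (0.054). AT1G74940 joined them without centring and after quantile normalization, which gave 5 of 9. The share of all genes was then 23.1% and 21.0%. Centring on all probe sets left 4 of 9, against 18.8% of all genes. Lowering the floor to the 25th percentile gave 4 of 11, against 16.4%, and raising it to the 60th gave 3 of 6, against 19.6%. Without any floor, and also with the pseudocount, 4 of 11 stood above, against 16.1%. No test was made of these counts.

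**Figure D3:**
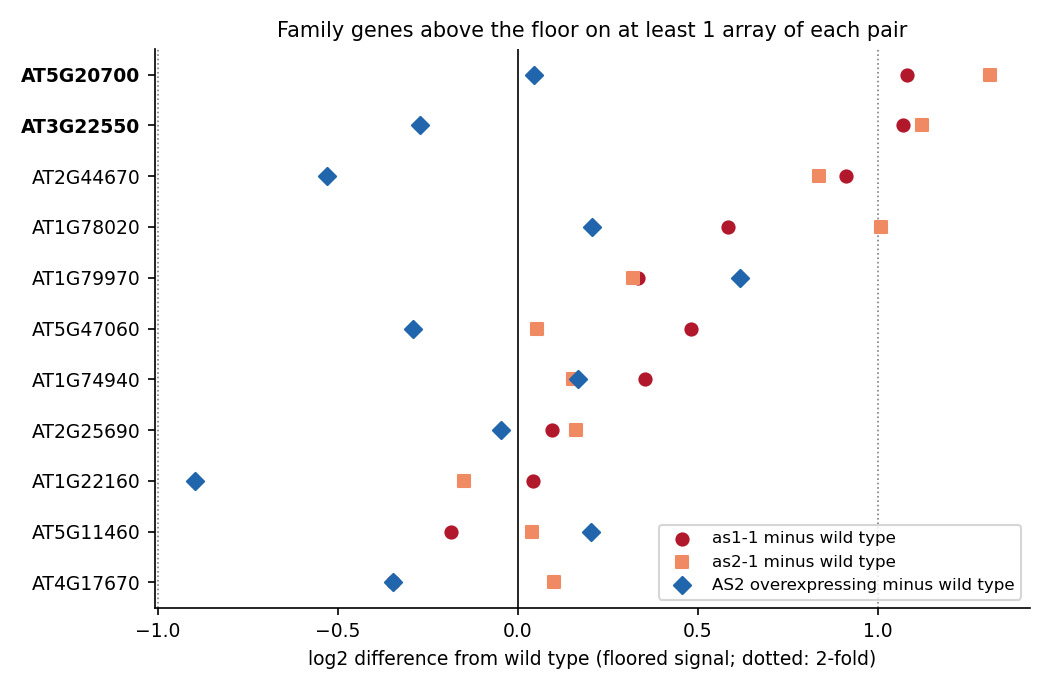
Log2 difference from wild type of the as1-1 (circles), as2-1 (squares) and AS2 overexpressing (diamonds) arrays for the 11 family genes above the floor on at least 1 array, with dotted lines at 2-fold; the as1-1 and AS2 overexpressing values of AT4G17670 are bounds that coincide at -0.35. AT5G20700 and AT3G22550 (bold) have both mutant points past 2-fold, AT2G44670 follows at 0.91 and 0.84, and the AS2 overexpressing points run from -0.90 to 0.62.

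Partners of the family were looked at next. Of 7 SnRK1 subunit genes on the list, 3 beta subunits were measured and 0 were called in the comparisons with wild type, where 2.87% (as1-1), 3.28% (as2-1) and 1.91% (AS2 overexpressing) of all genes were called in either direction. AKINBETA1, whose product is a regulatory beta subunit, had 451.8 in as1-1, 259.0 in as2-1, 571.8 in the AS2 overexpressing line and 450.7 in wild type. It was low in as2-1 alone, with a log2 difference from wild type of -0.83 there and -0.04 in as1-1, so it did not follow the zinc finger genes across the 2 mutants. It was called higher in the AS2 overexpressing line than in as2-1 (1.18), where 1.04% of all genes were. The other beta subunit genes, AT4G16360 (KINbeta2) and AT2G28060 (KINbeta3), had log2 differences between -0.17 and 0.16 in all 6 pairs of arrays.

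Few listed genes downstream of the kinase had a probe set of their own in the naming table. That table names no gene for 8730 of the 22746 probe sets, so a listed gene not measured here may still be on the array. AT3G15450, the 1 measured gene of 11 on the list of genes induced by SnRK1 at low energy, had 4299.3 in as1-1, 2755.5 in as2-1, 5696.8 in the AS2 overexpressing line and 5122.3 in wild type. Like AKINBETA1 it was lowest in as2-1, at a log2 difference from wild type of -0.93. It was called higher in the AS2 overexpressing line than in as2-1 (1.09), where 1.04% of all genes were. Of 6 bZIP transcription factor genes, bZIP44 differed from wild type by 0.77 in as1-1, by 0.66 in as2-1 and by 0.83 with AS2 overexpressed, and BZIP53 by 0.21, -0.03 and -0.03. RAPTOR1, a partner of the growth-promoting TOR kinase and the 1 measured gene of 5 on its list, differed by 0.17 in as1-1, by 0.10 in as2-1 and by -0.04 with AS2 overexpressed. The 9 listed genes of the abscisic acid response were not analysed here.

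Genes with the profile most like each member were found by the root mean square distance between log2 deviations from the own mean over the 4 arrays, among 6819 genes above the floor on all arrays. For AT5G20700 the nearest were AT2G38090 (distance 0.094), AT5G62150 (0.098), AT1G64330 (0.111), AT3G52900 (0.119) and AT2G43590 (0.124). For AT3G22550 they were AT4G09890 (0.082), AT5G62150 (0.083), AT1G05950 (0.107), AT1G64710 (0.111) and the family gene AT2G44670 (0.112). AT5G62150 was on both lists, with signals of 150.5 in as1-1, 147.3 in as2-1, 63.1 in the AS2 overexpressing line and 66.7 in wild type.

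The members lay at a distance of 0.132 from each other. AT3G22550 was the 7th nearest gene to AT5G20700, and AT5G20700 the 9th nearest to AT3G22550. The likeness rests on 4 arrays and is a description. With Pearson's correlation in place of the distance, which ignores the size of the differences, 0 of the 5 nearest genes of either member were shared with those above, and the members ranked 128th and 131st for each other. With the distance kept and quantile normalization in place of centring, 3 of the 5 were shared for AT5G20700 and 4 of the 5 for AT3G22550, and each member was the 2nd nearest gene of the other.

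**Figure D4:**
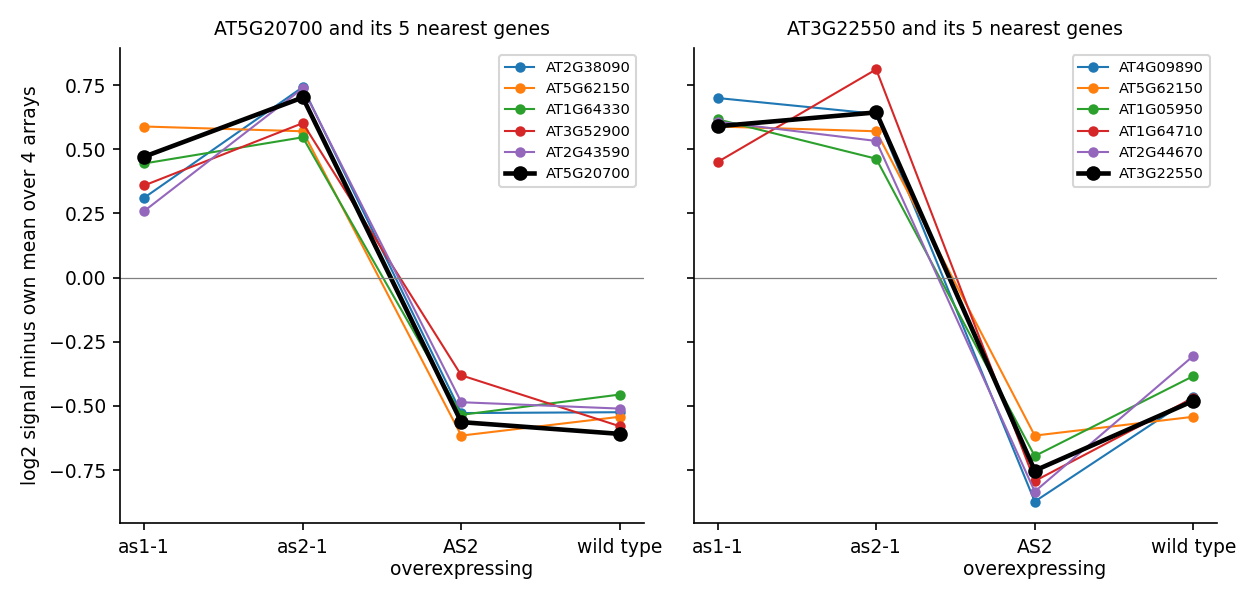
Log2 signal minus the own mean over the 4 arrays, for AT5G20700 (left, black) and AT3G22550 (right, black) with the 5 genes nearest to each in colour, 1 point per array. All profiles are high in as1-1 and as2-1 and low in the AS2 overexpressing line and wild type; the black line on the right is lower in the AS2 overexpressing line than in wild type, and so are its 5 nearest genes.

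The measured neighbours of the 2 loci did not reach 2-fold against wild type in the mutants. Few genes did, 2.87% of all genes in as1-1 and 3.28% in as2-1 in either direction, so this says little about the neighbours. Of the 3 loci on each side of AT3G22550 in the RefSeq order, AT3G22520, AT3G22530 and AT3G22540 were measured, and their log2 differences from wild type in the mutants ran from -0.34 to 0.07. TBL16, the 1 measured gene among the 6 around AT5G20700, differed by -0.09 in as1-1 and 0.24 in as2-1.

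The composition of the samples could be checked only in part, since many listed markers had no probe set of their own in the naming table. Of 7 shoot meristem markers 1 was measured, CLV3, a stem cell signal, and it lay below the floor on all 4 arrays. Of 6 leaf primordium markers YAB3, YAB5 and PHV were measured, with summed scaled signals of 1005 in as1-1, 1083 in as2-1, 887 in the AS2 overexpressing line and 891 in wild type. These 3 genes did not move together. YAB5 was higher in the mutants, with log2 differences from wild type of 1.19 in as1-1 and 1.33 in as2-1, and below the floor in the AS2 overexpressing line. YAB3 differed from wild type by -0.26 in as1-1, -0.01 in as2-1 and -0.11 with AS2 overexpressed, and PHV by -0.04, -0.16 and 0.66. YAB5 was thus high on the same arrays as the zinc finger genes, and its part in their differences was not tested. The 3 measured of 5 green leaf markers, RCA, LHCB4.1 and LHCB4.2, summed to 15990 in as1-1, 14110 in as2-1, 22170 in the AS2 overexpressing line and 28660 in wild type. The sums were lowest in the mutants, where the zinc finger genes were higher. Log2 differences from wild type in as1-1, in as2-1 and with AS2 overexpressed were -1.40, -2.45 and -0.65 for LHCB4.2. They were -0.92, -0.74 and -0.43 for RCA, and -0.41, -0.55 and -0.11 for LHCB4.1. The part of these green leaf differences in the zinc finger results was not tested. The root marker EXPA7, the 1 measured of 4, was below the floor on all arrays, and the flower, epidermis and vasculature markers were not analysed here. In bulk tissue, fewer cells of a type and less RNA per cell cannot be told apart.

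**Figure D5:**
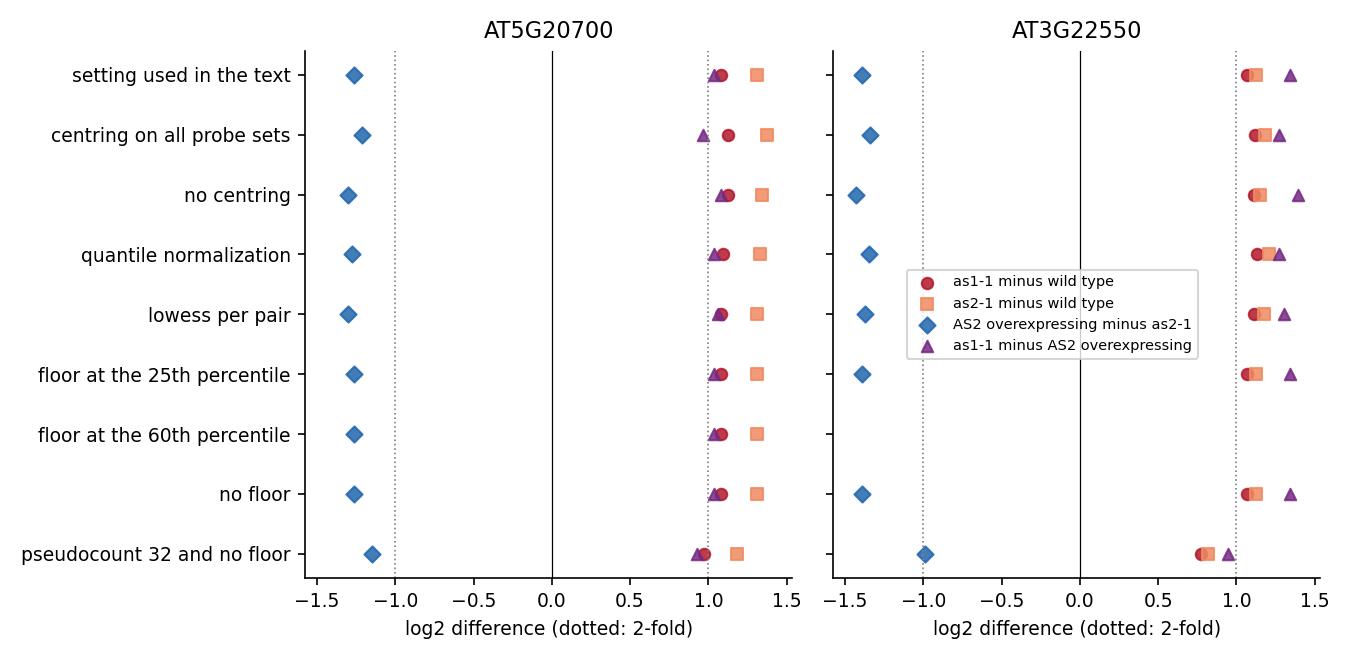
Log2 differences of AT5G20700 (left) and AT3G22550 (right) in 4 pairs of arrays under the setting used in the text and 8 alternatives, with dotted lines at 2-fold. The direction is the same in each row that has points; the pseudocount row is the one where most values fall under 2-fold, and AT3G22550 has no value with the floor at the 60th percentile because all 4 arrays then lie below it.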

How the data were processed

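The deposited values were linear signal intensities, 1 per probe set and array, from biotin-labelled cRNA on 4 Affymetrix arrays, per the labels' protocols. The software and array build behind them are not given in the sources used here. Means without the top and bottom 2% of probe sets were 198.4 to 198.5 on the 4 arrays. No detection calls were used.

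Signals were put on the log2 scale (0 set to 0.1). Each array was then shifted so that the brighter probe sets, those whose mean level reached the median, had the same median throughout. Values below the 40th percentile of scaled values, 42.88, were raised to that floor. With 1 of 2 arrays at the floor a difference is a bound, and with both there none is given. Of 22746 probe sets, 13513 had 1 gene, 503 several and 8730 none in the naming table, and 13436 matched a RefSeq locus. The probe set with the highest mean stood for a gene, which left 13355 genes. A gene was called at a 2-fold difference. No test was run, since there is 1 array per genotype.

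The members and the gene lists were chosen with earlier results of these data known. Named genes are the members, the 5 nearest profiles of each, all measured family genes, called or extreme genes of the other lists, and measured neighbours. Protein and promoter sequences were not used here. Python 3.11.15, numpy 2.4.6, pandas 2.3.3 and statsmodels 0.14.6 were used.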

Additional observations from a re-analysis of the deposited data

How the results depend on the processing

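The members' differences in the 6 pairs of arrays were recomputed under 8 alternatives (centring on all probe sets, no centring, quantile normalization, lowess per pair, floors at the 25th and 60th percentile, no floor, and a pseudocount of 32 without a floor). Of 90 values, 83 kept their direction and their side of 2-fold and 7 kept their direction but fell under 2-fold. With the pseudocount these were as1-1 minus wild type for AT5G20700 (0.97) and AT3G22550 (0.78), as2-1 minus wild type (0.82) and the AS2 overexpressing line minus as2-1 (-0.99) for AT3G22550, and as1-1 minus the AS2 overexpressing line for AT5G20700 (0.93) and AT3G22550 (0.95). With centring on all probe sets it was as1-1 minus the AS2 overexpressing line for AT5G20700 (0.97). A pseudocount shrinks the differences of low signals by construction. AT3G22550 has no value with the floor at the 60th percentile, a scaled signal of 128.5, since its 4 arrays lie below it.

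In a step added after seeing the data, the separation of the mutants from both other arrays was recomputed in the same way, with lowess left out. It was 0.97 for AT5G20700 with centring on all probe sets, and 0.93 for AT5G20700 and 0.78 for AT3G22550 with the pseudocount. The count of genes at least 2-fold above was 16 of 7910 in the setting used. It was 27 of 10827 and 7 of 5256 with the floor at the 25th and 60th percentile. With no floor it was 153 of 13355, and with the pseudocount 8 of 13355.

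The number of genes measured in a pair changes with the floor, so the counts below are over unlike totals. For as1-1 minus wild type it was 7744 in the setting used, and 10359 and 5029 with floors at the 25th and 60th percentile. Without a floor and with the pseudocount it was 13355. The background counts moved with the floor. With it at the 25th percentile, at the 60th, absent, and replaced by the pseudocount, genes at least 2-fold apart numbered 660, 97, 3177 and 140 for as1-1 minus wild type (222 in the setting used), 729, 116, 3259 and 152 for as2-1 minus wild type (254), 542, 43, 2724 and 79 for the AS2 overexpressing line minus wild type (148), 164, 20, 2508 and 26 for as1-1 minus as2-1 (55), 510, 100, 2925 and 129 for the AS2 overexpressing line minus as2-1 (212), and 519, 102, 2956 and 139 for as1-1 minus the AS2 overexpressing line (223). Centring on all probe sets shifted the median over all genes by 0.11 for the AS2 overexpressing line minus wild type, where AT5G20700 then stood at 0.16 and AT3G22550 at -0.15. No replicate could be left out, and no paired analysis was possible because each genotype has 1 array.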
